A study of Solanum lycopersicum with 8 samples.

Results

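A set of 8 genes of the anthocyanin branch and its regulators was followed in tomato (Solanum lycopersicum, cultivar M82), chosen by a fixed list of gene IDs; all 8 were found among the 34725 genes of the count files. They encode F3'5'H (Solyc11g066580, flavonoid 3',5'-hydroxylase), DFR (Solyc02g085020, dihydroflavonol reductase), ANS (Solyc08g080040, anthocyanidin synthase), the glutathione transferase listed as AE (Solyc02g081340), the anthocyanidin 3-glucosyltransferase listed as 3GT (Solyc10g083440), the bHLH factor listed as AN1 (Solyc09g065100), and the MYB factors ANT1 (Solyc10g086260) and AN2 (Solyc10g086250). The IDs place them on chromosomes 2, 8, 9, 10 and 11, and AN2 and ANT1 are neighbours with 0 genes between them in the RefSeq assembly SLM_r2.1. From plants of this cultivar, 2 tissues were sequenced, with 4 libraries each from 4 collections: gland cells of type VI trichomes, the short-stalked leaf hairs with a secretory head, and leaf scraped free of its hairs. Plants were 5 weeks old and grew at 28 °C under 250 µE of light. The leaf libraries carry the genotype label of the af (anthocyanin free) mutant, which is defective in chalcone isomerase CHI1, and the trichome libraries that of complemented line 4, a single line whose transgene promoter is not given in the sources used here. The protocols state that leaf and hairs were taken from the same plants, which conflicts with 2 genotypes; if the genotype labels hold, tissue and genotype cannot be told apart in any value below.

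Anthocyanins are red to blue flavonoid pigments that are stored in the vacuole, often of epidermal cells. The shared flavonoid steps end at dihydroflavonols, from which flavonol synthase makes colourless flavonols, while DFR and then ANS lead to the coloured anthocyanidins. A sugar added by 3GT makes them stable, further enzymes add rhamnose, acyl groups and a second sugar, and a glutathione transferase and a transporter take part in moving them to the vacuole. The late genes are switched on by a complex of a MYB, a bHLH and a WD40 protein, in which ANT1 or AN2 and AN1 are the MYB and bHLH partners in tomato. F3'5'H sets the hydroxylation pattern of the blue, delphinidin type.

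The leaf libraries held 19209754 to 34941715 counts in genes and the trichome libraries 24596280 to 26514416. Levels are CPM, read counts scaled to library size with TMM factors. Where a gene has no count, up to 3 counts remain possible, which is 0.0905 to 0.151 CPM for the leaf and 0.111 to 0.148 CPM for the trichome libraries and covers counting error only. The tissue labels were checked with marker genes: 6 gland markers summed to 98.3 to 177.1 CPM in leaf and 9756 to 17068 in trichome, and 5 leaf markers to 18980 to 27861 and 1686 to 2429 CPM, with none of the 11 markers at 0 in any library. CHI1 (Solyc05g010320), the gene of the af locus, had 283.7, 271.8, 120.4 and 99.2 CPM in leaf replicates 1 to 4 and 1421, 1687, 1499 and 1531 in trichome replicates 1 to 4, so its transcript was present under both genotype labels. Leaf replicate 2 was the highest leaf library for the 7 members with enough counts, by 1.21 times (AN2) to 16.6 times (ANS), and their fold changes are given with and without it.

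Of the 8 genes, 7 had enough counts to be tested, and all 7 had their highest leaf level in replicate 2 and their lowest in replicate 4. In the comparison of trichome with leaf, 5 were lower in trichome (DFR, ANS, AE, AN1 and AN2), 1 was higher (3GT) and 1 was not called (F3'5'H), with calls made below 0.05 after Benjamini-Hochberg adjustment of edgeR's quasi-likelihood p over 20409 genes. The background is large: 72.4% of all tested genes were called, 38.5% as lower and 33.9% as higher in trichome. Without leaf replicate 2, without any one of the trichome libraries or with the collection as a block, 3 of the 5 lower calls were left (DFR, AE and AN1). The median log2 fold change was -3.24 over the 7 genes, the value of ANS, and -0.094 over all tested genes. The members' median was -0.66 without leaf replicate 2 and -1.35 with the collection as a block, where all tested genes had medians of -0.087 and -0.092. In these bulk samples fewer cells of a type and less RNA per cell cannot be told apart. The plot of the members by library shows all 8 genes.

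**Figure D1:**
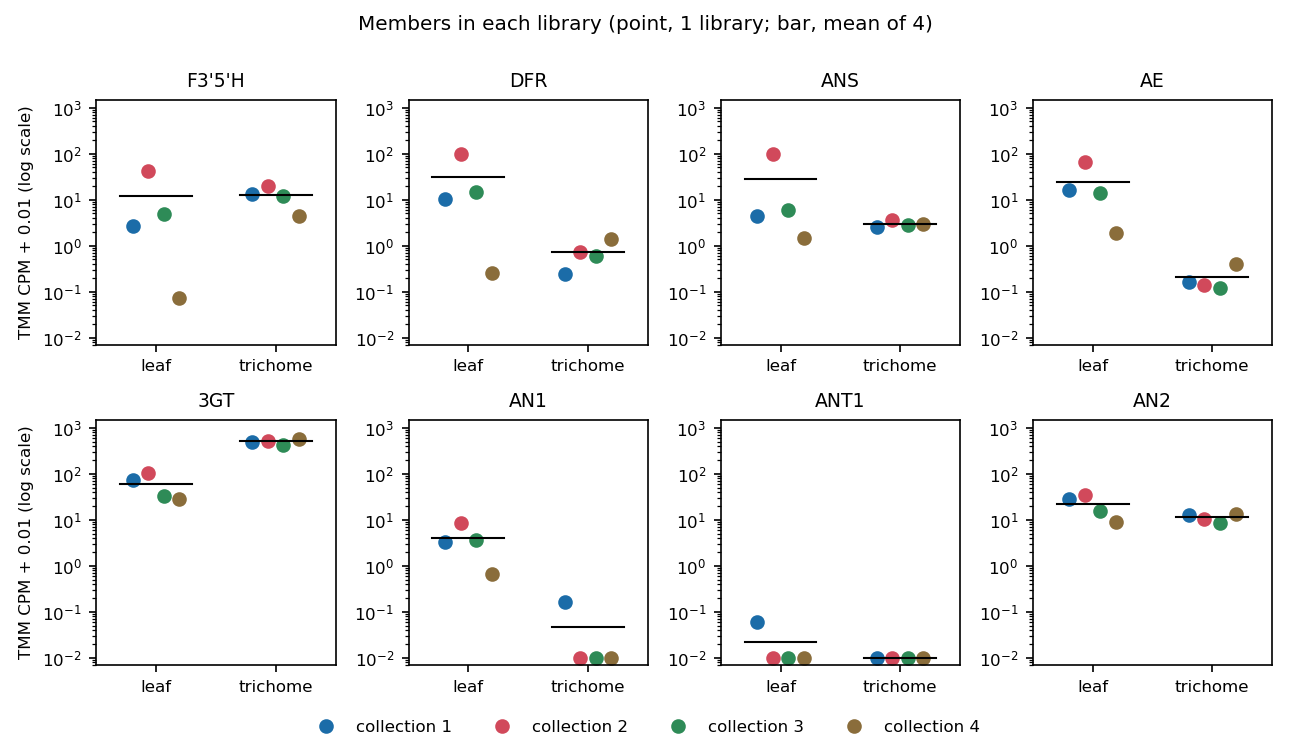
Level of each member in each library, as TMM CPM plus 0.01 on a log axis; points are single libraries coloured by collection and bars are means of 4. The leaf point of collection 2 is the highest leaf point in 7 panels, and the leaf point of collection 4 the lowest in the same 7; points at the bottom edge are libraries with 0 counts.

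The branch enzymes DFR and ANS were both lower in trichome on average. DFR, the first step committed to anthocyanins, had 10.2, 95.8, 14.6 and 0.245 CPM in leaf replicates 1 to 4 and 0.227, 0.701, 0.590 and 1.38 CPM in trichome replicates 1 to 4. Leaf replicates 1 to 3 lay above every trichome library and leaf replicate 4 lay within the trichome range, so the groups overlap. Leaf averaged 30.2 ± 44.1 CPM and trichome 0.725 ± 0.482 CPM (SD, n = 4). On the log2 scale the fitted change was -5.41 (SE 1.43, edgeR adjusted p = 0.00726), with trichome lower in 3 of 4 collections. Without leaf replicate 2 it was -3.55 (adjusted p = 0.0165), without collection 4 -6.33, and with limma-voom the call was lost (log2 -3.55, adjusted p = 0.252).

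ANS, which makes the first coloured compound, had 4.28, 100.4, 6.03 and 1.44 CPM in the leaf replicates and 2.53, 3.64, 2.80 and 2.91 CPM in the trichome replicates. A single leaf library was high, and leaf replicate 4 lay below every trichome library. The leaf mean of 28.0 ± 48.3 CPM became 3.92 ± 2.32 (SD, n = 3) without replicate 2, against 2.97 ± 0.473 (SD, n = 4) in trichome. On the log2 scale ANS changed by -3.24 (SE 1.20, edgeR adjusted p = 0.0351), and it was -0.41 (adjusted p = 0.431) without leaf replicate 2. With the collection as a block it was -1.35 (adjusted p = 0.223), and leaving out any one of the trichome libraries also took the adjusted p above 0.05 (0.0706 to 0.0769). The call of ANS as lower was thus lost without leaf replicate 2 and without any one trichome library. It held without collection 4, which also takes out a trichome library (log2 -3.64, edgeR adjusted p = 0.0277). Leaving out collection 1, 2 or 3 lost it (edgeR adjusted p of 0.0608, 0.395 and 0.0647).

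F3'5'H, a cytochrome P450, had 2.62, 40.9, 4.86 and 0.0612 CPM in the leaf replicates, the last from 2 counts, and 13.4, 19.6, 12.0 and 4.34 CPM in the trichome replicates. The leaf range encloses the whole trichome range. Trichome was the higher tissue in collections 1, 3 and 4 and the lower one in collection 2. The fitted log2 change of 0.03 (SE 1.17, edgeR adjusted p = 0.984) became 2.29 (adjusted p = 0.0618) without leaf replicate 2, so its sign and size are not settled by these libraries. Its trichome levels were also highest in collection 2 and lowest in collection 4.

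The glutathione transferase AE had 16.5, 64.9, 14.1 and 1.84 CPM in the leaf replicates and 0.151, 0.132, 0.111 and 0.394 CPM in the trichome replicates, where it rested on 3 to 8 counts per library. The groups did not overlap, which held for 3 of the 8 genes (AE, 3GT and AN1) and for 68.3% of all tested genes. For AE the fitted log2 change was -6.97 (SE 1.14, edgeR adjusted p = 4.55e-04), and -5.80 (adjusted p = 3.35e-04) without leaf replicate 2 and -7.89 without collection 4. AE was lower in trichome in all 4 collections, and it was called in every alternative that tested it.

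The glucosyltransferase 3GT went the other way. It had 72.0, 106.1, 32.2 and 28.7 CPM in the leaf replicates and 491.5, 525.9, 430.5 and 581.2 CPM in the trichome replicates. Every trichome library lay above every leaf library, and the trichome libraries differed by at most 1.35 times among themselves. Its log2 change was 3.09 (SE 0.43, edgeR adjusted p = 1.65e-04), and from 2.77 to 3.51 when libraries or collections were left out, with 3.51 without leaf replicate 2. Flavonols such as rutin also carry a sugar at position 3, and the enzymes that add it are not always distinct from those of anthocyanins.

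Among the regulators, AN1, the bHLH partner, had 3.23, 8.58, 3.68 and 0.642 CPM in the leaf replicates and 0.151 CPM in trichome replicate 1, from 4 counts, with 0 counts in trichome replicates 2, 3 and 4. It was lower in trichome in all 4 collections, also in collection 4, where its leaf level was lowest. The fitted log2 change of AN1 was -6.47 (SE 1.12, edgeR adjusted p = 6.31e-04), and -5.79 (adjusted p = 0.00126) without leaf replicate 2. Without trichome replicate 1 no trichome count is left and the fitted value of -9.74 depends on the prior count.

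AN2, one of the MYB partners, had 28.8, 34.8, 15.9 and 9.18 CPM in the leaf replicates and 13.0, 10.3, 8.56 and 13.7 CPM in the trichome replicates. The groups overlap, and trichome was higher in collection 4. Leaf averaged 22.2 ± 11.7 CPM and trichome 11.4 ± 2.38 CPM (SD, n = 4), and the fitted log2 change was -0.96 (SE 0.38, edgeR adjusted p = 0.0462). AN2 was no longer called when leaf replicate 1 (adjusted p = 0.113) or 2 (log2 -0.66, adjusted p = 0.136) was left out, nor when any one trichome library was (0.0565 to 0.113), nor with the collection as a block (log2 -0.82, adjusted p = 0.0845). ANT1, the neighbouring MYB gene, had 1 count in leaf replicate 1 and 0 in the other 7 libraries, and was not tested.

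**Figure D2:**
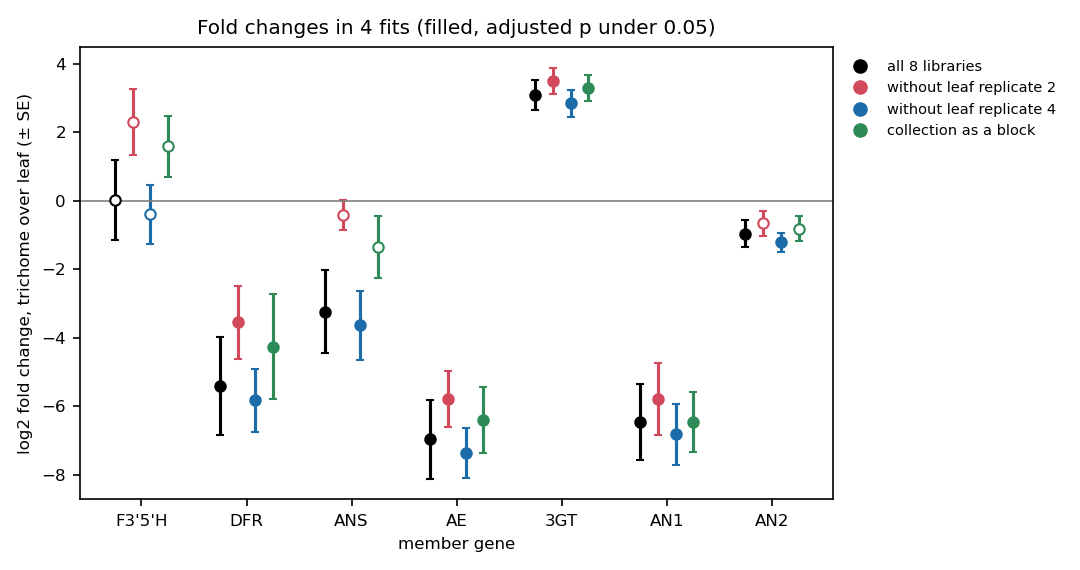
Log2 fold change of trichome over leaf with its approximate standard error for the 7 tested members, in the fit of all 8 libraries, without leaf replicate 2, without leaf replicate 4 and with the collection as a block; filled points have an adjusted p under 0.05. ANS moves from -3.24 to -0.41 without leaf replicate 2, while 3GT stays near 3.09 and AE and AN1 stay at -5.79 or below.

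The high level of leaf replicate 2 was shared by the branch genes but not in equal measure. ANS was 16.6 times its next leaf library, F3'5'H 8.41 times, DFR 6.56 times, AE 3.94 times, AN1 2.33 times, 3GT 1.47 times and AN2 1.21 times. This pattern was given by the way the genes were chosen and comes from 1 library, so it is described and not tested. Of all tested genes, 28.1% had their highest leaf level in replicate 2, and 13.2% had it there together with the lowest in replicate 4, the pattern of all 7 tested members. A replicate 2 level at least 4 times every other leaf library, a limit chosen after the values were seen and applied to CPM plus 0.1, was found for 20 of 20409 genes (0.098%), among them ANS, F3'5'H and DFR. The same limit was passed by 0.0196% of genes for leaf replicate 1, 0.0392% for replicate 3 and 0.647% for replicate 4. ANS had the largest such ratio of all tested genes, with 0 above it, while F3'5'H had 4 genes above it and DFR 7. AE had 22 genes above it, AN1 204, 3GT 1024 and AN2 2444. For 3GT and AN2 the ratio was thus less unusual, with 5.02% and 12.0% of tested genes at or above it.

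**Figure D3:**
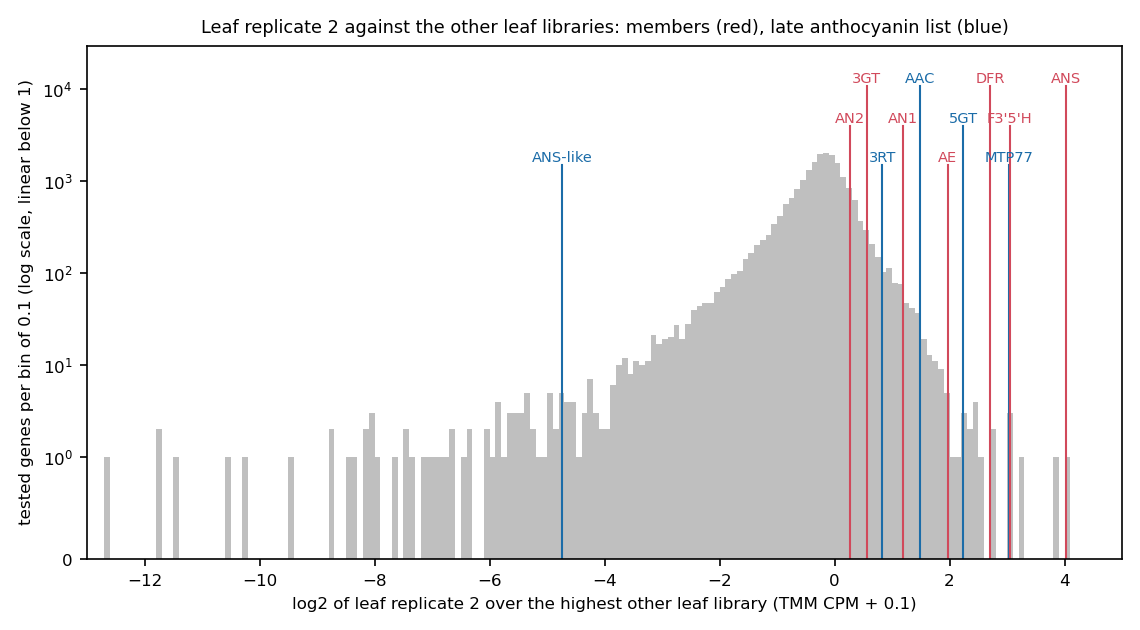
Distribution over all 20409 tested genes of the log2 ratio of leaf replicate 2 to the highest of the other leaf libraries (TMM CPM plus 0.1), on a log count axis that is linear below 1. Red lines mark the 7 tested members and blue lines the late anthocyanin list; ANS lies farthest right at 4.03, and the median of all tested genes is -0.222.

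The members fell into 2 orders of the leaf libraries. DFR, ANS, F3'5'H and AN1 ran from replicate 2 through 3 and 1 to 4, an order that 7.05% of tested genes had. AE, 3GT and AN2 ran from replicate 2 through 1 and 3 to 4, an order that 6.13% of tested genes had. In several members replicates 1 and 3 lay close together: AE had 16.5 and 14.1 CPM there, and AN1 3.23 and 3.68. The distance between the highest and the lowest leaf library was 391.3 times for DFR, 69.8 times for ANS, 35.4 times for AE, 13.3 times for AN1, 3.79 times for AN2 and 3.70 times for 3GT; F3'5'H, with 2 counts in leaf replicate 4, is left out.

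For the members, the trichome library of collection 2 showed no matching excess. Of the members, ANS (3.64 CPM against at most 2.91) and F3'5'H (19.6 against at most 13.4) had their highest trichome level there, as did 17.9% of all tested genes. Neither reached 4 times the other trichome libraries, a limit passed by 0.0441% of tested genes. Of the late genes described below, AAC had 0.877 CPM in trichome replicate 2, from 20 counts, against at most 0.197 CPM in the others. With 0.1 CPM added, its log2 ratio was 1.72. 3RT was also highest there. MTP77 was highest there only after scaling, with 2 counts in each of trichome replicates 1, 2 and 3 and 0 in replicate 4. 5GT and ANS-like were lowest there, on 4 counts each. The 6 gland markers summed to 177.1 CPM in leaf replicate 2, or 1.32% of their trichome mean, against 151.7, 98.3 and 142.7 CPM in leaf replicates 1, 3 and 4, and their part in the leaf levels was not tested. DFR, ANS, F3'5'H, AE, AN1 and AN2 were higher in leaf replicate 2 than in any trichome library, while 3GT there was at 20.9% of its trichome mean. The 5 leaf markers summed to 18980 CPM in leaf replicate 2, the lowest of the leaf libraries.

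The listed late genes split by direction: 5GT, AAC and MTP77 went the way of DFR, 3RT went that of 3GT, and a second copy of ANS was not called. Of 5 listed genes of late anthocyanin steps, 3 were lower in trichome, 1 was higher and 1 was not called. Of all tested genes, 38.5% were called lower and 33.9% higher. The median log2 fold change of the 5 was -7.04, and leaving out leaf replicate 2 made that median -5.47. The gene listed as 5GT (Solyc12g098590), which adds a sugar at position 5, had 18.5, 154.0, 32.6 and 0.459 CPM in the leaf replicates and 0.175 to 0.553 CPM in trichome (log2 -7.04, SE 1.50, adjusted p = 0.00222; -5.47 without leaf replicate 2). Leaf replicate 4 lay within the trichome range. The gene listed as AAC (Solyc12g088170), an acyltransferase of anthocyanins, had 32.7, 133.7, 47.6 and 0.704 CPM in the leaf replicates and 0.111 to 0.877 CPM in trichome (log2 -7.30, adjusted p = 0.00134; -6.31 without leaf replicate 2 and -8.31 without trichome replicate 2). The calls of both were lost with limma-voom (adjusted p = 0.178 for 5GT and 0.126 for AAC).

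The gene listed as MTP77 (Solyc03g025190), a MATE transporter, had 4.49, 47.7, 5.73 and 0.520 CPM in the leaf replicates and 0 to 2 counts in each trichome library (log2 -7.78, adjusted p = 0.00166; -5.76 without leaf replicate 2). 5GT and MTP77 were among the 20 of 20409 tested genes (0.098%) at least 4 times higher in leaf replicate 2. With ANS, F3'5'H and DFR, 5 of those 20 were members or late genes. Members and lists were chosen with earlier results of these data known, so this count is a description and was not tested. The gene listed as 3RT (Solyc09g059170), a rhamnosyltransferase that acts on the glucoside, was higher in trichome, as was 3GT (log2 3.09). 3RT had 44.2, 78.6, 19.8 and 19.5 CPM in the leaf replicates and 2065 to 4611 CPM in trichome (log2 6.37, SE 0.61, edgeR adjusted p = 1.56e-05). Likeness of its profile to that of 3GT was not measured. The second copy listed as ANS-like (Solyc10g076660) had 0.554, 0.210, 0.814 and 8.20 CPM in the leaf replicates and 0.175 to 2.02 CPM in trichome (log2 -1.20, adjusted p = 0.374; 1.01 without leaf replicate 4), and its lowest leaf library was replicate 2.

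All 7 listed genes of the shared early steps and of flavonol synthesis were called higher in trichome, as were 33.9% of all tested genes. The 7 had a median log2 fold change of 3.73. They are CHS1 and CHS2 (chalcone synthases), CHI1, F3H (flavanone hydroxylase), F3'H (flavonoid 3'-hydroxylase), the gene listed as FLS (flavonol synthase) and MYB12, a MYB factor of flavonol genes. Their log2 fold changes were 5.36, 3.28, 2.99, 4.07, 5.83, 3.73 and 3.14, in that order. In leaf, 5 of the 7 were highest in replicate 2, as were 28.1% of all tested genes. The ratio to the next leaf library was at most 1.88, for MYB12, and 0 of the 7 reached 4 times. F3H, for example, had 178.8, 293.3, 64.0 and 69.5 CPM in the leaf replicates. In the same fit DFR was lower in trichome, F3'5'H, which acts before it, was not called, and ANS was lower. The ANS call did not hold in the absence of leaf replicate 2 (log2 -0.41, adjusted p = 0.431) or with the block (-1.35, adjusted p = 0.223).

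Of 6 further listed regulators, 1 was lower, 1 was higher, 2 were not called and 2 had too few counts to be tested. The shares of all tested genes were 38.5% lower and 33.9% higher. MYBATV (Solyc07g052490), a small MYB protein that represses anthocyanin synthesis in tomato, had 5.75, 4.73, 0.965 and 6.61 CPM in the leaf replicates and 0 to 4 counts in each trichome library (log2 -5.27, adjusted p = 2.27e-04). Its highest leaf library was replicate 4, where DFR was lowest, and its lowest was replicate 3, where DFR had 14.6 CPM. A link between the levels of MYBATV and DFR was not tested. HY5 (Solyc08g061130), a bZIP factor of light signalling, had 13.2, 21.5, 4.37 and 9.54 CPM in the leaf replicates and 26.4 to 50.2 CPM in trichome (log2 1.69, adjusted p = 0.00562).

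JAF13 and AN11, further partners of the complex, were not called. The bHLH gene JAF13 ranged from 38.4 to 49.2 CPM over the leaf libraries and from 32.3 to 42.6 CPM over the trichome libraries (log2 -0.24, adjusted p = 0.137; called as lower with library size alone, adjusted p = 0.0173, with upper-quartile factors or when only genes of 5 CPM or more in 4 libraries were tested). The WD40 gene listed as AN11 had 14.9 to 23.8 CPM in leaf and 20.6 to 32.4 in trichome (log2 0.32, adjusted p = 0.161). For both, leaf replicate 2 was not the highest leaf library. The MYB gene listed as ANT1-like (Solyc10g086270) had 4.23, 3.89, 3.17 and 0.275 CPM in the leaf replicates and 0 to 5 counts in each trichome library, and that listed as AN2-like (Solyc10g086290) had 1 count in each of leaf replicates 2 and 4 and 0 elsewhere. Neither passed the filter on low counts. ANT1-like, like the members, was lowest in leaf replicate 4, but it was not raised in leaf replicate 2.

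**Figure D4:**
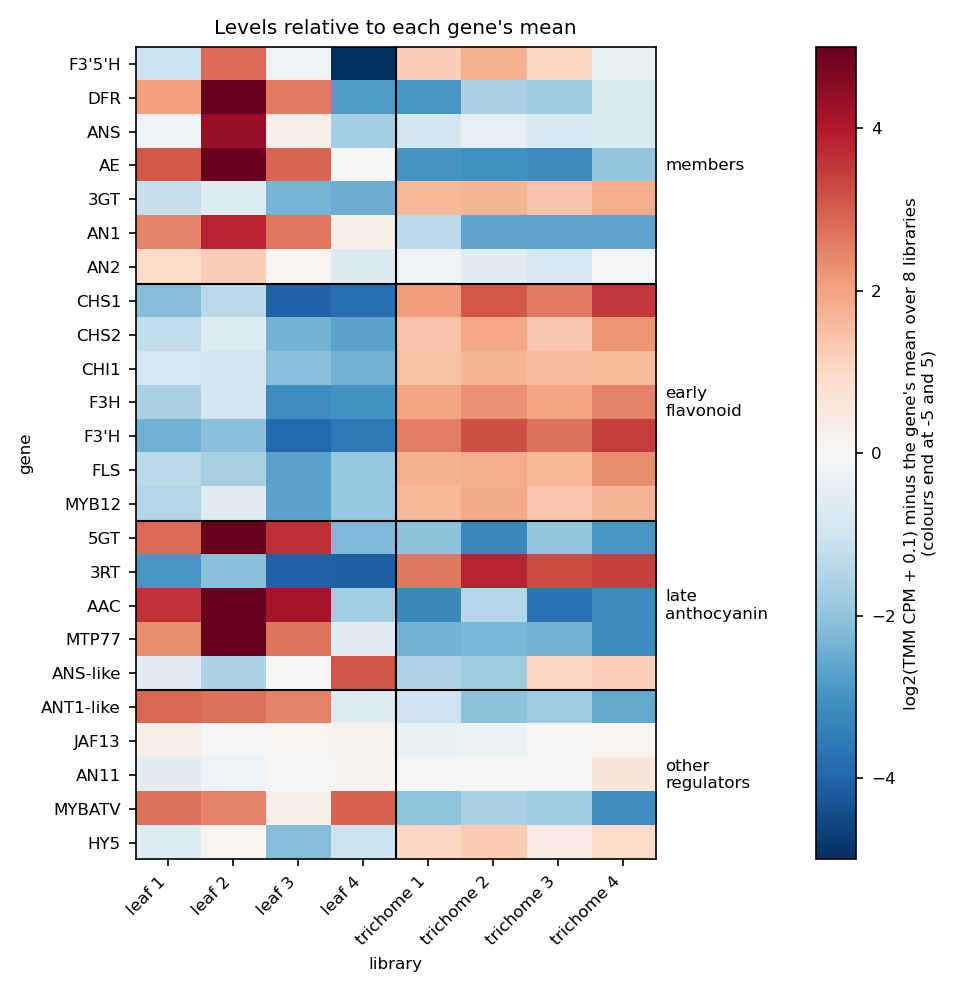
Log2(TMM CPM plus 0.1) of the members and the 3 pathway lists in each of the 8 libraries, minus the gene's mean over the libraries; colours end at -5 and 5, and ANT1 and AN2-like are left out for want of counts. DFR, ANS, AE, 5GT, AAC and MTP77 are darkest red in leaf 2, while 3GT, 3RT and the early flavonoid genes are red in all trichome columns.

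Likeness of profiles was measured as the root mean square difference, over the 8 libraries, of log2(CPM + 0.1) centred on each gene's mean, and is a description, since libraries of one tissue share most of it. The 2 genes nearest to the mean profile of the 5 enzymes were Solyc04g078140 (0.671) and Solyc03g093310 (0.733), which the sources used here do not name. Solyc04g078140 had 1.71, 35.9, 4.22 and 0.214 CPM in the leaf replicates and 0.482 to 0.906 CPM in trichome. That mean profile blends genes of opposite direction: the enzymes themselves lay between 0.531 (ANS) and 2.42 (3GT) from it. By likeness to DFR alone, a measure added after the values were seen, 5GT ranked 2, MTP77 5, AE 8, AAC 10, ANS 28 and AN1 36 of 20408 genes. On the same scale AN2 ranked 1142, F3'5'H 11455 and 3GT 19018.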

How the data were processed

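The authors deposited raw HTSeq counts of reads per gene, 1 file per library, not normalized. The submitters' processing notes name Trimmomatic, TopHat2, SAMtools and HTSeq, without versions. Genome build, annotation and use of strand were not given in the sources used here. Overlapping and antisense genes and near-identical copies are therefore uncertain. HTSeq's summary lines, which held 12.7% to 24.4% of all counts of a library, were left out.

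The test was edgeR's (4.0.16, R 4.3.3) quasi-likelihood test (TMM factors, filterByExpr, 20409 of 34725 genes, Benjamini-Hochberg adjustment over all of them, called under 0.05), with scripts tested on simulated data. CPM use the same factors. Standard errors are log2 fold change divided by the root of F. Alternatives were RLE, upper-quartile and no factors, other filters, DESeq2 1.42.0, limma-voom (limma 3.58.1), the block, and leaving out each library or collection.

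The files give no names and 0 IDs matched the RefSeq table (SLM_r2.1) directly. Of 37 listed names the table holds 22, and all 22 lay on the ID's chromosome within 5 percentage points of its relative position among genes; the other names rest on published assignments and are introduced as "listed as". No sequences were printed, as none were given.

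Collection numbers pair the libraries, because the labels give a shared sampling time per number and the leaves are described as those of the plants used for hairs. Within each number, the 2 libraries' deviations from their tissue's mean had correlations of 0.0978, 0.138, 0.192 and 0.169. The 12 pairs with different numbers ran from -0.204 to 0.137, and 2 of them lay above 0.0978, so the pairing rests on the labels. No 2 libraries agreed within sampling noise (chi-square per degree of freedom of at least 46.0). The labels give the 4 collections as separate samples. The reported p-values take all 8 libraries as independent and leave out the pairing, which only the block fit uses. With the block, DFR was at log2 -4.27 (edgeR adjusted p = 0.0422), and ANS and AN2 were not called. The named genes were the 8 members, 18 genes of 3 pathway lists and the 2 genes of nearest profile. Members and lists were chosen with earlier results of these data known, and no list was tested.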

Additional observations from a re-analysis of the deposited data

Results flagged for a closer look

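Each member's 4 levels per tissue were checked for a library far from the others, as a gap to the nearest library above 0.829 of the group's range, in 14 groups of 4 with more than 3 counts. In leaf replicate 2 this held for F3'5'H (40.9 CPM, nearest other leaf library 4.86), DFR (95.8, nearest 14.6) and ANS (100.4, nearest 6.03). The genes were chosen with their high level in that library known, so these 3 values are a description, to which no chance rate applies, and they share 1 library. In trichome it held for AE in replicate 4 (0.394 CPM, nearest 0.151) and for AN1 in replicate 1 (0.151 CPM, all others at 0), which rest on 8 and 4 counts. These are 2 of the 7 trichome groups checked. At counts this low no chance rate is known for the limit, so none is set beside them.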

How the results depend on the processing

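The 7 tested members stayed highest in leaf replicate 2 and lowest in replicate 4 with RLE, upper-quartile or no factors, and the higher call of 3GT and the lower calls of AN1 and AE held in all alternatives that tested them. The number of members called lower was 5 in the reported fit, 4 with DESeq2, 3 with the replicate block and 2 with limma-voom. It was 1 with at least 5 CPM in 4 libraries, which left 3 members to test, and 3 to 5 when a library or collection was left out. Among all tested genes, 7855 of 20409 were called lower in the reported fit, 8340 with DESeq2, 7753 with the block and 7873 with limma-voom. The stricter filter gave 5594 of 14722, and leaving out a library or collection gave 7184 to 8180. The fold change of F3'5'H, not called anywhere, changed sign: -0.027 with RLE, -0.097 with upper-quartile factors, -0.31 with library size alone, -0.070 with the stricter filter, -0.026 with DESeq2, and -0.39 to 2.29 with libraries left out. ANS was not called with limma-voom (-1.39) or the replicate block (-1.35) and ran from -3.64 to -0.41 with libraries left out; DESeq2 gave it no adjusted p. AN2 was not called with limma-voom (-0.78) or the block (-0.82) and ran from -1.33 to -0.61 with libraries left out, and DFR was not called with limma-voom (-3.55). Of the late genes 0 were called lower with the stricter filter, which left 5GT, AAC and MTP77 untested, and 1 with limma-voom, in place of 3. Of the other regulators 2 were called lower with upper-quartile factors, library size alone or no filter and 1 to 2 with libraries left out. Among all tested genes, 8252 were called lower with upper-quartile factors, 8348 with library size alone and 8849 of 26409 with no filter. The members' median of -3.24 became -1.39 with limma-voom and -0.070 with the stricter filter, over the 3 members left. ANS-like ran from -1.93 to 1.01 with libraries left out. The replicate block changed no other call of a member. Library size alone moved the median of all genes by -0.215 and the share of higher calls from 46.9% to 38.6%. Beyond the filters' smaller set of genes, the causes were not tested. Depth limits ANT1, AN2-like and the trichome levels of AE, AN1, MTP77, MYBATV and ANT1-like, which lie at or near the limit of 3 counts. It also limits some trichome levels of AAC (5, 3 and 4 counts in replicates 1, 3 and 4) and 5GT (4 and 5 counts in replicates 2 and 4).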

Other observations

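In leaf replicate 4, where the members were lowest, ANS-like was 10.1 times its next leaf library, and 132 tested genes (0.647%) were at least 4 times every other leaf library there. In collection 4 trichome exceeded leaf for F3'5'H, DFR, ANS, 3GT and AN2, and leaf exceeded trichome for AE and AN1. In collection 2 leaf exceeded trichome for all tested members but 3GT. The members were chosen with their high level in leaf replicate 2 known. The share of all tested genes with either direction was not counted.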
